A study of Mus musculus with 35 samples.

Results

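Regions listed for the transcription factor ATF3 in macrophages stimulated for 240 min with lipopolysaccharide (LPS) were set against the chromatin state of the same time. All regions of the 3 ATF3 libraries were taken, each library kept apart, and they numbered 7815 of the 250088 regions in the 35 libraries of the series. ATF3 A held 3954 regions, ATF3 B 1257 and ATF3 C 2604. The chromatin state came from 5 further libraries at 240 min, namely 2 for acetylated histone H4 (H4ac), 2 for RNA polymerase II (Pol II) and 1 for histone H3 trimethylated at lysine 27 (H3K27me3).

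The series measured chromatin immunoprecipitation with sequencing (ChIP-seq), in which fixed, sonicated chromatin is precipitated with an antibody and the recovered DNA is read. The cells were primary bone marrow macrophages (BMMs) of female wild type C57BL/6 mice aged 8-12 weeks, and all 8 libraries at 240 min came from LPS-treated cells. ATF3 was precipitated with Santa Cruz Biotechnology sc-188, and the 4 libraries for the NF-kB subunit p50 used for comparison came from the same kind of cells after 60 min of LPS. Nothing in the labels says that replicates were separate animals or cultures, so every spread between libraries may be technical. No ATF3 library without LPS and no control library were used here, so the ATF3 label itself could not be checked against a background measured the same way.

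ATF3 is a basic leucine zipper protein of the ATF/CREB family that is induced by stress and by Toll-like receptor signals. In LPS-stimulated macrophages it is known for limiting the transcription of inflammatory genes. H4ac marks active promoters and enhancers, Pol II covers genes being transcribed or poised for it, and H3K27me3 is laid down by Polycomb complexes over silent genes.

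ATF3 regions were mostly short. Of the regions listed, 3761 in ATF3 A, 1237 in ATF3 B and 2558 in ATF3 C were at most 10 kb wide and were kept. Overlapping ones were joined, which left 3507, 1224 and 2507 regions with a median width of 210, 150 and 160 bp. The widest kept regions were 9620, 8420 and 9240 bp, and the narrowest left out were 10120, 14710 and 10340 bp. The lists hold no read counts, so depth is unknown, and a region that is missing from a list was not listed, which does not show that it was unbound.

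An H4ac set was made of the regions that both H4ac libraries held, and a Pol II set likewise, with limits of 10 kb for H4ac and 100 kb for Pol II and H3K27me3. The limits left out 4922 of the 27235 regions listed in H4ac A and 3567 of 17894 in H4ac B. They left out 554 of 5144 in Pol II A, 714 of 7728 in Pol II B and 1032 of 2945 in H3K27me3 A. The H4ac set had 11616 regions with a median of 2030 bp and covered 34.5 Mb. The Pol II set had 2314 regions with a median of 20655 bp and covered 70.2 Mb. The H3K27me3 set had 1803 regions with a median of 19370 bp and covered 50.9 Mb. As a background, points were placed every 1 kb along the chromosomes, 2571156 in all, and 1.34% of them lay in the H4ac set, 2.73% in the Pol II set and 1.98% in the H3K27me3 set.

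Acetylated chromatin held a large share of the regions of ATF3 A and a small share of those of the other libraries. In ATF3 A, 1327 of 3507 regions touched the H4ac set by at least 1 bp, or 37.8% with a Wilson 95% interval of 36.2 to 39.5%. In ATF3 B, 59 of 1224 regions did so, or 4.82% (3.76 to 6.17%). In ATF3 C the count was 126 of 2507, or 5.03% (4.24 to 5.95%). All 3 shares were above the 1.34% of background points, while ATF3 A stood far from the other libraries. The intervals cover counting error over regions only, and regions of 1 library are not replicates.

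The share of ATF3 regions whose midpoint lay inside the H4ac set can be read directly against the points. It was 36.2% in ATF3 A, 4.74% in ATF3 B and 4.75% in ATF3 C. These shares were 27.0, 3.54 and 3.54 times that of the points. The 2 lower libraries did not differ beyond their counting error, and both lay over H4ac more often than evenly spaced points did.

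For Pol II, too, ATF3 A stood above the other libraries, by a smaller ratio. In ATF3 A, 646 regions or 18.4% touched the Pol II set (17.2 to 19.7%). In ATF3 B the count was 53 or 4.33% (3.33 to 5.62%), and in ATF3 C 100 or 3.99% (3.29 to 4.83%), beside 2.73% of background points. By midpoints the shares were 6.65, 1.59 and 1.40 times that of the points. With these width limits ATF3 B and ATF3 C thus lay much closer to the background than ATF3 A.

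H3K27me3 did not separate the 3 ATF3 libraries. It was touched by 113 regions of ATF3 A, or 3.22% (2.69 to 3.86%), 44 of ATF3 B, or 3.59% (2.69 to 4.79%), and 87 of ATF3 C, or 3.47% (2.82 to 4.26%). The midpoint shares were 1.53, 1.69 and 1.71 times the 1.98% of background points. The 3 intervals overlapped, and the ratios for ATF3 B and ATF3 C depended on the width limits, as given at the end.

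Across the 3 ATF3 libraries the mean share was 15.9% ± 19.0 (SD, n = 3) for H4ac, 8.91% ± 8.24 for Pol II and 3.43% ± 0.190 for H3K27me3. The SD for H4ac exceeded its mean, because ATF3 A was 7.69 times the mean of ATF3 B and ATF3 C. For Pol II that ratio was 4.43, and for H3K27me3 it was 0.912. Without ATF3 A the mean was 4.92% for H4ac and 4.16% for Pol II.

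**Figure D1:**
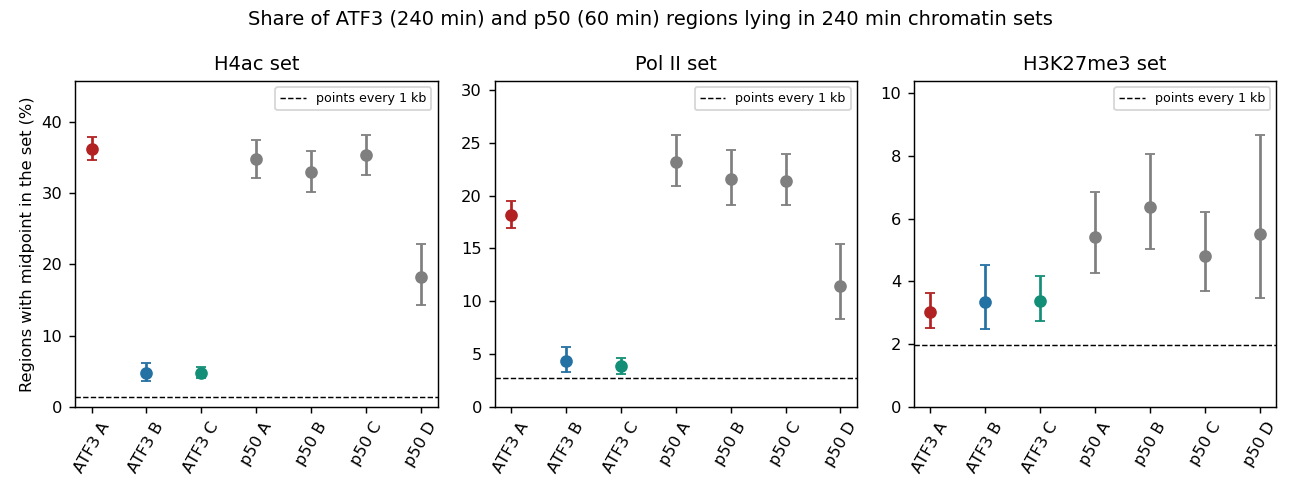
Share of regions with their midpoint in the H4ac, Pol II or H3K27me3 set of 240 min (vertical axes in percent, with different scales) for the 3 ATF3 libraries at 240 min and the 4 p50 libraries at 60 min; points are libraries, bars are Wilson 95% intervals and the dashed line is the share of points placed every 1 kb. ATF3 A sits at 36.2% for H4ac beside 4.74% and 4.75% for ATF3 B and ATF3 C, while all 3 lie between 3.02% and 3.39% for H3K27me3.

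The p50 subunit of NF-kB, a factor of LPS signalling, gave a scale for these shares. The p50 libraries touched the H4ac set with 36.3%, 34.3%, 36.8% and 18.8% of their regions, the Pol II set with 24.0%, 22.3%, 22.5% and 11.4%, and the H3K27me3 set with 5.67%, 6.69%, 5.17% and 6.49%. ATF3 A lay level with the highest p50 libraries for H4ac, within counting error, and within their range for Pol II, and ATF3 B and ATF3 C lay below all 4 for both. For H3K27me3 all 3 ATF3 libraries lay below all 4 p50 libraries.

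The mean difference between ATF3 and p50 was −15.7 percentage points for H4ac (exact two-sided permutation test, p = 0.286, Benjamini-Hochberg adjusted over the 3 sets p = 0.286). It was −11.1 points for Pol II (exact permutation p = 0.114, adjusted p = 0.171) and −2.58 points for H3K27me3 (exact permutation p = 0.0571, adjusted p = 0.171). With 3 against 4 libraries the smallest p is 0.0571, so none of the comparisons could pass 0.05. Factor and time differ together between these groups and cannot be told apart.

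Most ATF3 B and ATF3 C regions lay outside every chromatin region kept at 240 min, while ATF3 A regions fell into several states. In ATF3 B, 1071 regions or 87.5% touched none of the 5 lists, and in ATF3 C 2189 or 87.3%. In ATF3 A it was 1432 or 40.8%. By midpoints, 53.3% of ATF3 A, 89.3% of ATF3 B and 89.5% of ATF3 C lay in none of the 3 sets. Of the background points 94.3% did so, more than in any ATF3 library. The most frequent marked state of ATF3 A was H4ac with no Pol II list and no H3K27me3, in 821 regions or 23.4%. A further 351 regions or 10.0% touched the H4ac and Pol II sets without H3K27me3, and 197 or 5.62% touched the Pol II set with no H4ac list and no H3K27me3.

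Acetylation together with the Polycomb mark was found at 33 regions of ATF3 A. Of these, 12 also touched the Pol II set, or 0.342% of the list. Another 79 regions, 2.25%, touched H3K27me3 without the H4ac or Pol II set. These are bulk libraries, so a region found in 2 lists need not carry both in the same cells, and fewer cells with a mark cannot be told apart from less of it per cell.

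Counted per length of chromatin, ATF3 A regions were as dense over H4ac without Pol II as over H4ac with it. Their midpoints numbered 37.1 per Mb where the H4ac and Pol II sets overlapped, 36.8 per Mb over H4ac without Pol II and 4.80 per Mb over Pol II without H4ac. Over H3K27me3 alone the density was 1.54 per Mb, and outside the 3 sets it was 0.770 per Mb. Relative to that last value the classes stood at 48.2, 47.8, 6.23 and 2.0 times.

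ATF3 B and ATF3 C gave a shallower version of the same order over H4ac. ATF3 B had 2.26 midpoints per Mb over H4ac with Pol II, 1.47 over H4ac without it, 0.526 over Pol II without H4ac and 0.451 outside the sets. ATF3 C had 3.44, 3.46, 1.05 and 0.925 per Mb in these classes. Over Pol II without H4ac they were thus at 1.17 and 1.14 times the density outside, a small step beside that of ATF3 A. Over H3K27me3 alone they were 0.820 and 1.60 per Mb, or 1.82 and 1.73 times the density outside.

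**Figure D2:**
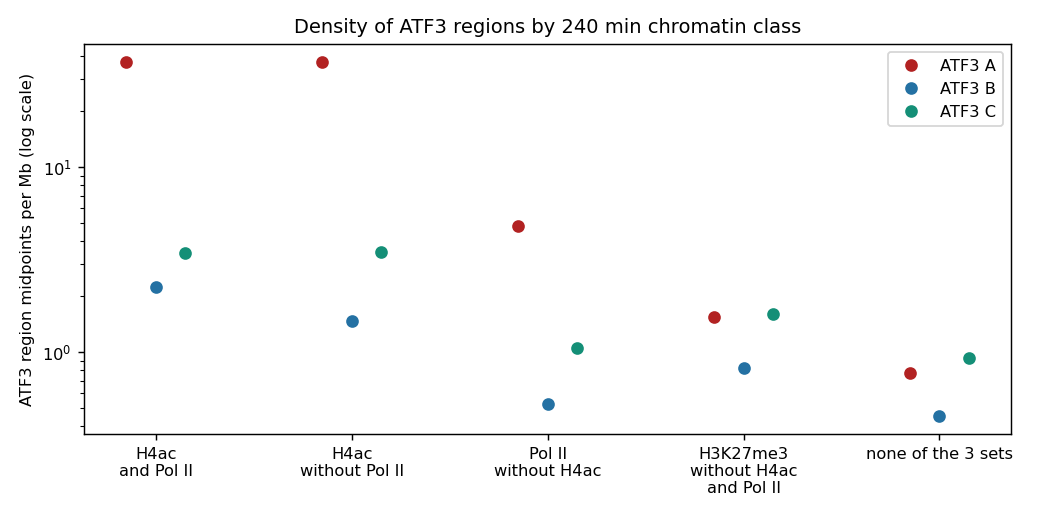
Midpoints of ATF3 regions per Mb (log scale) in 5 classes of chromatin at 240 min made from the H4ac, Pol II and H3K27me3 sets; each point is 1 ATF3 library. ATF3 A reaches 37.1 and 36.8 per Mb in both H4ac classes and 0.770 outside the sets, while ATF3 B and ATF3 C stay within 0.451 and 3.46 per Mb.

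Pol II was more frequent at ATF3 regions with acetylation than at those without. Of the ATF3 A regions touching the H4ac set, 363 of 1327 or 27.4% also touched the Pol II set (25.0 to 29.8%), beside 198 of 1767 or 11.2% of those touching no H4ac list (9.82 to 12.8%). In ATF3 B the shares were 35.6% of 59 and 2.45% of 1144 regions, and in ATF3 C 28.6% of 126 and 2.35% of 2342. Of all 11616 H4ac regions, with or without ATF3, 25.2% touched the Pol II set (24.4 to 26.0%). The interval of each ATF3 library, for ATF3 B as wide as 24.6 to 48.3%, overlapped that of all H4ac regions. Whole H4ac regions are wider than ATF3 regions and have more chance to touch a set, so the units differ.

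H3K27me3 showed the opposite arrangement in ATF3 A. It was touched by 2.49% of the regions in the H4ac set (1.78 to 3.47%) and by 4.30% of those touching no H4ac list (3.45 to 5.35%). The intervals just overlapped. Among all H4ac regions, with or without ATF3, 1.51% touched H3K27me3 (1.30 to 1.74%), which is below the share of the acetylated ATF3 A regions. Here, too, whole H4ac regions are set beside the shorter ATF3 regions. ATF3 C ran the other way from ATF3 A, with 5.56% of 126 regions in H4ac (2.72 to 11.0%) beside 3.42% of those in no H4ac list (2.75 to 4.23%). In ATF3 B a single region touched both marks.

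Acetylation was centred on the ATF3 A regions and faded within a few kb. H4ac covered 36.2% of the ATF3 A midpoints, 37.3% and 37.2% of the positions 500 bp to the left and right, and 30.0% and 29.9% of those at 1 kb. At 2 kb it covered 18.2% and 17.8%, at 5 kb 8.73% and 9.47%, and at 10 kb 6.10% and 5.39%. At 10 kb it was still above the 1.34% of background points. The left and right sides ran closely together throughout.

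A low peak of H4ac stood at the same place in ATF3 B and ATF3 C. H4ac covered 4.74% of the ATF3 B midpoints and 1.47% and 1.72% of the positions at 10 kb. For ATF3 C these values were 4.75%, 1.72% and 1.40%. Both libraries thus came down close to the background share at 10 kb, which ATF3 A did not.

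Pol II and H3K27me3 showed little or no peak on ATF3 regions. Around ATF3 A, Pol II coverage went from 18.2% at the midpoint to 14.1% and 14.3% at 10 kb. The part of the width of Pol II regions in this was not tested. In ATF3 B it was 4.33% at the midpoint and 3.59% and 4.33% at 10 kb. H3K27me3 coverage around ATF3 A was 3.02% at the midpoint and 3.08% and 3.51% at 10 kb. These curves were nearly flat compared with that of H4ac.

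**Figure D3:**
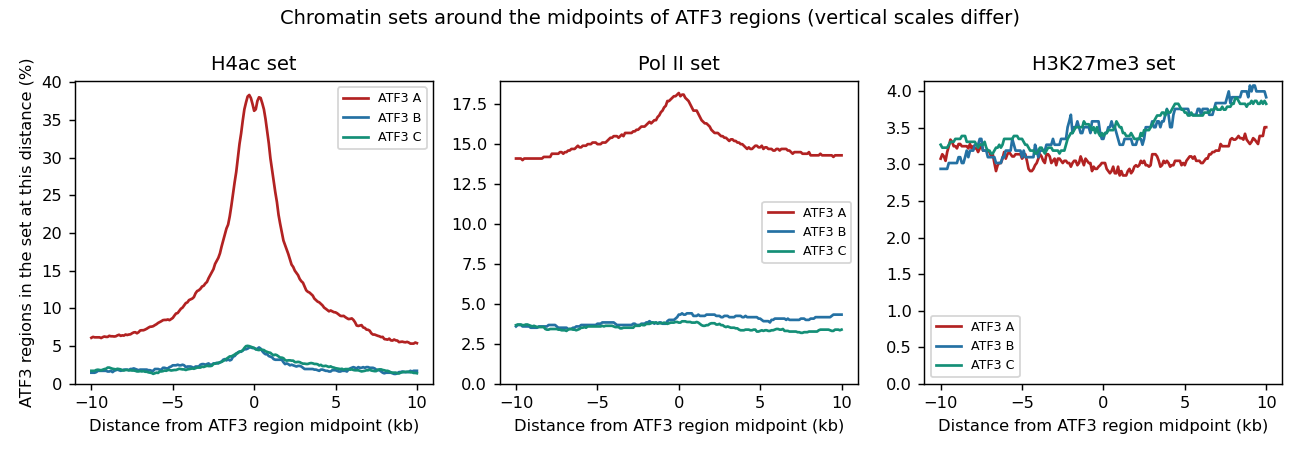
Share of ATF3 regions (vertical axes in percent, with different scales) for which the position at a given distance in kb from the region's midpoint lies in the H4ac, Pol II or H3K27me3 set; each line is 1 ATF3 library. The ATF3 A line for H4ac goes from 36.2% at the midpoint to 6.10% and 5.39% at 10 kb on either side, and the H3K27me3 lines are nearly flat.

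The distance from an ATF3 midpoint to the nearest H4ac region had a median of 8.76 kb in ATF3 A, 141 kb in ATF3 B and 132 kb in ATF3 C, beside 203 kb for the points. Within 10 kb of an H4ac region lay 51.3%, 13.6% and 12.8% of the midpoints, beside 8.87% of the points. Many ATF3 A regions outside H4ac were therefore still near it. The median distance to Pol II was 141, 624 and 583 kb beside 765 kb for the points, and to H3K27me3 363, 706 and 704 kb beside 956 kb. By the median ATF3 A was the closest of the 3 libraries to each set. Within 10 kb of H3K27me3, however, lay 6.13% of ATF3 A, 6.70% of ATF3 B and 5.19% of ATF3 C midpoints.

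Inside H4ac regions, ATF3 A lay toward the middle. The 1252 ATF3 A midpoints in H4ac regions of at least 1 kb were sorted by their distance from the centre into 4 zones of equal width between centre and edge. The innermost zone held 36.4%, the next 28.7%, the one after it 24.1% and the outermost 10.8%. In ATF3 C, with 118 midpoints, the zones held 31.4%, 22.9%, 25.4% and 20.3%, and in ATF3 B, with 55, 34.5%, 21.8%, 20.0% and 23.6%. The outermost zone was scarce in ATF3 A alone, though whether the libraries differ here was not tested. Outside the H4ac set, 15 ATF3 A regions had an H4ac region within 1 kb on both sides, beside 1 in each of the other libraries. Joining the H4ac lists can fill gaps, so this count cannot show how often acetylation had a gap at the factor. H4ac covered 36.2% of the ATF3 A midpoints and 38.3% and 38.0% of the positions 300 bp to the left and right.

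Wide ATF3 A regions lay over acetylated chromatin more often than narrow ones. Of the ATF3 A regions up to 200 bp, 30.7% touched the H4ac set (28.6 to 32.9%), and of those over 200 and up to 500 bp 39.9%. Of those over 500 and up to 1000 bp it was 54.7%, and of those over 1000 bp 62.9% (56.4 to 69.0%). For Pol II the shares were 14.9%, 18.1%, 25.7% and 39.8%. A wider region also has more chance to touch a set.

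That order was not seen in the other libraries. Of the ATF3 B regions in these width classes 4.70%, 5.84%, 0% and 5.77% touched H4ac, where the 0 stands for none of 43 regions and allows up to 8.20%. In ATF3 C the shares were 4.82%, 5.35%, 3.49% and 7.14%. The intervals of the narrowest and the widest class overlapped in both libraries.

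The authors' own score per region, which ranks regions within a list, had little bearing on acetylation in ATF3 A. Divided into 4 equal classes from the best to the lowest score, 39.4%, 39.5%, 36.9% and 35.6% of the ATF3 A regions touched the H4ac set. In ATF3 C the order ran the other way, with 2.88% of the best class (1.83 to 4.50%) and 6.38% of the lowest (4.72 to 8.57%). In ATF3 B the classes held 4.25%, 3.59%, 5.23% and 6.21%. The best regions of ATF3 C were thus the least acetylated of that list.

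Seen from the chromatin, ATF3 A was found in a minority of acetylated regions. Of the 11616 regions of the H4ac set, 1283 or 11.0% held an ATF3 A region, 59 or 0.508% an ATF3 B region and 130 or 1.12% an ATF3 C region. Of the 2314 Pol II regions, 515 or 22.3% held ATF3 A, 50 or 2.16% ATF3 B and 97 or 4.19% ATF3 C. Of the 1803 H3K27me3 regions, 109 or 6.05% held ATF3 A, 43 or 2.38% ATF3 B and 84 or 4.66% ATF3 C. These shares scale with the lengths of the ATF3 lists, which differ.

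H4ac regions that held ATF3 A were wide. Their median width was 4010 bp, beside 1900 bp for the 10333 without it, and 57 of them held more than 1 ATF3 A region, up to 5. Of H4ac regions up to 500 bp 2.19% held ATF3 A, of those up to 1000 bp 2.62%, up to 2000 bp 4.34%, up to 5000 bp 14.6% and above that 25.0%. Width alone gives a region more room, so the midpoints were also counted per Mb. They numbered 15.2 per Mb in H4ac regions up to 1000 bp, 25.7 up to 2000 bp, 47.5 up to 5000 bp and 34.5 in wider ones. Per length, then, ATF3 A was densest in H4ac regions of 2000 to 5000 bp.

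Among H4ac regions of that width, the best-scored ones held ATF3 A most often. In the list H4ac A, 4 equal classes by the authors' score, from best to lowest, held an ATF3 A region in 21.2%, 11.9%, 13.1% and 11.1% of cases. In H4ac B they did so in 23.7%, 17.3%, 14.0% and 11.3%. The best class lay above the other 3 in both H4ac libraries.

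**Figure D4:**
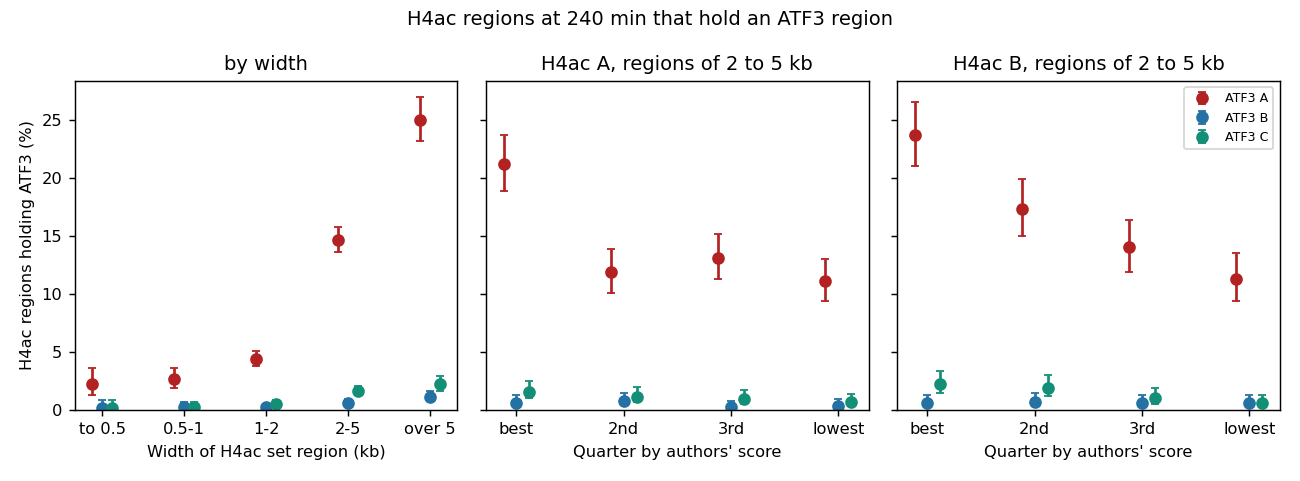
Share of H4ac regions at 240 min that hold an ATF3 region (vertical axis, percent) by width of the H4ac region in kb (left, H4ac set) and by class of the authors' score among regions of 2 to 5 kb of H4ac A (middle) and H4ac B (right); points are ATF3 libraries and bars are Wilson 95% intervals. For ATF3 A the share goes from 2.19% in the narrowest to 25.0% in the widest H4ac regions, and the best classes stand at 21.2% and 23.7%.

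H4ac regions with ATF3 A touched the Pol II set in 30.5% of cases (28.0 to 33.0%) and those without it in 24.6% (23.7 to 25.4%). This order was not kept in every width class. Up to 500 bp the shares with and without ATF3 A were 14.3% (of 14 regions) and 19.6%, over 500 and up to 1000 bp 34.3% (of 35 regions) and 17.8%, and over 1000 and up to 2000 bp 14.1% and 17.8%. Among H4ac regions over 2000 and up to 5000 bp, 23.8% of those with ATF3 A (20.5 to 27.4%) and 30.6% of those without it (29.1 to 32.2%) touched Pol II. Among those over 5000 bp the shares were 43.5% (39.3 to 47.9%) and 35.2% (32.8 to 37.6%). The direction differed between width classes and did not follow width in order.

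A similar share of ATF3 A regions touched H4ac regions listed in unstimulated cells. In the H4ac libraries without LPS, 47.2% (letter A) and 42.0% (letter B) of the ATF3 A regions touched an H4ac region. After 60 min of LPS it was 41.5% and 34.0%, after 120 min 31.7% and 27.7%, and after 240 min 42.9% and 37.5%. Relative to the points in the same list, the midpoint shares were 25.7 and 29.4 times without LPS, 28.0 and 35.1 at 60 min, 22.2 and 28.5 at 120 min and 25.0 and 31.1 at 240 min. The values of 240 min lay inside the range of the other times in this ratio. Whether the same ATF3 regions were acetylated at each time was not tested.

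Against the H4ac libraries of every time ATF3 B and ATF3 C were low. Their shares ran from 4.00 to 6.13% and from 3.99 to 5.94%. For Pol II, ATF3 A touched 17.4% without LPS, 17.4% and 21.0% at 60 min, 13.4% at 120 min, 17.3% and 22.8% at 240 min and 8.81% at 360 min. The list of 360 min covered 0.870% of the points, beside 2.28% and 3.38% at 240 min.

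The 3 ATF3 libraries shared few regions. Merged across libraries, the kept regions made 6627, of which 13 or 0.196% were held by all 3. ATF3 A and ATF3 B shared 92 regions of ATF3 A (2.62%) and 89 of ATF3 B (7.27%). ATF3 A and ATF3 C shared 138 of ATF3 A (3.93%) and 137 of ATF3 C (5.46%). The overlap of ATF3 B and ATF3 C was larger, with 390 of ATF3 B (31.9%) and 392 of ATF3 C (15.6%).

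Sharing between ATF3 B and ATF3 C did not come with acetylation. The merged regions held by ATF3 B and ATF3 C alone numbered 379, and 2.11% of them touched the H4ac set. Of the 755 held by ATF3 B alone it was 3.05%, of the 1990 held by ATF3 C alone 3.02%, and of the 3291 held by ATF3 A alone 37.7%. Where ATF3 A and ATF3 B alone held a region, 26 of 77 or 33.8% touched H4ac. For ATF3 A and ATF3 C alone it was 52 of 122 or 42.6%. ATF3 B alone gave 23 such regions and ATF3 C alone 60. Much of the H4ac overlap of both libraries thus lay in the few regions shared with ATF3 A. ATF3 A regions shared with ATF3 C touched H4ac in 44.2% of cases (36.2 to 52.5%), and those not shared in 37.6% (36.0 to 39.2%). Of the 13 regions in all 3 libraries, 6 touched both H4ac lists and 7 touched no list of 240 min.

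Large parts of ATF3 B and ATF3 C were also listed in 2 libraries of the NF-kB subunit p65. Of the ATF3 B regions 29.3% touched p65 A of 60 min and 27.7% touched p65 C of 120 min. Of the ATF3 C regions it was 22.2% and 22.5%, beside the 15.6% that touched ATF3 B, and of ATF3 A 0.456% and 2.48%. The ATF3 B list is shorter, with 1224 regions beside 2206 in p65 A and 2040 in p65 C. In the other direction, 31.9% of ATF3 B touched ATF3 C, beside 25.3% of p65 A and 27.6% of p65 C. The p65 libraries with the letter X gave another picture, as they were touched by 1.97% (60 min) and 2.17% (120 min) of ATF3 A and by at most 1.88% of ATF3 B and ATF3 C. ATF3 A regions covered 15.6% and 21.1% of those p65 X regions.

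In ATF3 B and ATF3 C, the regions shared with these p65 libraries were acetylated less often than the rest. ATF3 B had 552 regions (45.1%) in p65 A or p65 C, and 1.27% of them touched H4ac, beside 7.74% of the remaining 672. ATF3 C had 889 such regions (35.5%) with 2.25% touching H4ac, beside 6.55% of the other 1618. The titles of ATF3 B and of p65 A at 60 min carry the same date, while no other library shares the date of ATF3 A or ATF3 C. The part of that date in the overlap was not tested. What the regions common to ATF3 B, ATF3 C and these p65 libraries represent cannot be told from the lists, and this holds for the ATF3 B and ATF3 C shares and the means over 3 libraries as well.

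**Figure D5:**
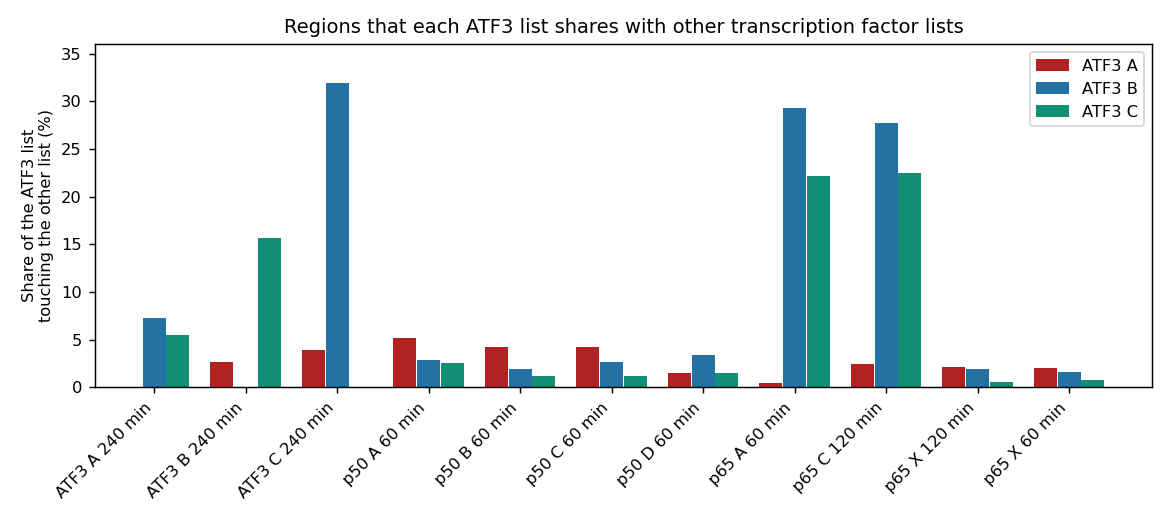
Share of each ATF3 list (vertical axis, percent) that touches another ATF3, p50 or p65 list (horizontal axis, library and time after LPS); bars start at 0 and no list is set against itself. ATF3 B and ATF3 C reach 29.3% and 22.2% with p65 A and 27.7% and 22.5% with p65 C, where ATF3 A stands at 0.456% and 2.48%.

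ATF3 regions that also touched p50 lay over H4ac at a higher share than those that did not, though in ATF3 A the intervals just overlapped. In ATF3 A, 141 regions touched at least 2 p50 lists of 60 min, and 46.8% of them touched H4ac (38.8 to 55.0%), beside 37.5% of those touching no p50 list (35.8 to 39.2%). In ATF3 B it was 22.2% of 27 regions (10.6 to 40.8%) beside 4.61%. In ATF3 C it was 40.0% of 20 regions (21.9 to 61.3%) beside 4.64%. For Pol II the ATF3 A shares were 31.9% and 17.4%. These small groups were the most acetylated regions of ATF3 B and ATF3 C among the splits by other factors made here.

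The ATF3 libraries also differed in where along the genome their regions lay. On chromosome X lay 58 regions of ATF3 A (1.65%), 62 of ATF3 B (5.07%) and 144 of ATF3 C (5.74%), beside 6.25% of the points and 3.31% and 3.03% of the regions of the H4ac libraries. Neighbouring regions lay a median of 183 kb apart in ATF3 A and 1280 and 627 kb apart in ATF3 B and ATF3 C. Gaps of at most 10 kb made up 9.04%, 2.91% and 1.69%. Spacing also depends on the number of regions in a list, here 3507, 1224 and 2507. The spacing expected from list length was not calculated, so these values alone do not show a difference in placement. The share touching H4ac ranged over the autosomes from 29.7% (chromosome 13) to 42.6% (chromosome 14) in ATF3 A, and no autosome of ATF3 B (at most 11.6%) or ATF3 C (at most 9.49%) came near it.

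The best-scored regions of the lists show the states on single loci (coordinates on mm9). For all loci named below, only regions within the width limits were counted. A wider listed region may cover a locus said to touch no list. Gene names are not given, because no annotation of that build was used here. The best ATF3 A region, chrX:166428921-166429110 with a score of 3.93, touched both H4ac and both Pol II lists and was in all 3 ATF3 lists. It was held by 23 of the 35 libraries, which included all 8 for H4ac and 6 of 7 for Pol II. Among them were also 2 for H3K27me3, 2 for p50 and 2 for p65. The third, chrX:166432931-166433070, touched all 5 chromatin lists and was held by 21 libraries. The second, chr16:87725001-87725270, touched both Pol II lists and no H4ac list at 240 min.

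The best regions of ATF3 B and ATF3 C mostly touched none of the chromatin regions kept at 240 min. The 3 best of ATF3 B were chrY:2190131-2190700, chr8:127507941-127508860 and chr8:121644131-121644360, and none touched a chromatin list of 240 min. Of these, chr8:127507941-127508860 was in 2 H3K27me3 libraries of other times. Of the 3 best of ATF3 C, chr11:112808901-112809160 and chr6:53259311-53260310 touched none, and the third lay inside the acetylated best ATF3 A region on chromosome X. Each of these 2 ATF3 C regions was also in 1 p65 list. The mice were female, and yet 11, 7 and 7 regions of ATF3 A, ATF3 B and ATF3 C were listed on chromosome Y, none of them in the H4ac set.

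By the mean of rank divided by list length, the best merged regions of all 3 libraries were chrX:166428921-166429130, chrX:166432931-166433580 and chr3:103499441-103499730. The first 2 carried H4ac and Pol II, the second also H3K27me3. The third touched no chromatin list of 240 min but was in 3 H3K27me3 libraries of other times. The second was held by 27 of the 35 libraries, among them all 5 for H3K27me3, 4 for p50 and 2 for p65. By the plain mean of the ranks the third place went to chr4:142878391-142878930, which touched both H4ac lists and Pol II B. Within ATF3 A, the best regions over H4ac without a Pol II list were chr4:59379071-59379240, in both H4ac lists, chr14:66959601-66959870, in H4ac A, and chr10:126499541-126499840, in H4ac B. The first of these was held by all 8 H4ac libraries of the series and by no Pol II, p50 or p65 library.

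The best ATF3 A regions over H3K27me3 with no H4ac list at 240 min were chr4:108052831-108053110, chr8:10534881-10535230 and chr10:66901901-66902280. They were held by 3, 5 and 3 of the 5 H3K27me3 libraries. The best touching no chromatin list at 240 min were chr17:87970901-87971100, chr1:163412351-163412630 and chr11:53963341-53963570. Within the width limits, the first 2 were in ATF3 A alone of the 35 libraries, and the last was also in 2 H4ac libraries of other times.

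The width limits set much of these shares. With regions of every width the H4ac set covered 678 Mb, or 26.4% of the chromosomes, and 74.9%, 29.3% and 29.8% of the regions of ATF3 A, ATF3 B and ATF3 C touched it, so that the midpoint shares were 2.74, 1.10 and 1.10 times the covered share. With limits of 1 kb for ATF3 and H4ac the shares were 1.94%, 0.677% and 0.293%, and the H4ac set covered 0.0697% of the chromosomes. The midpoint shares were then 14.0 (10.0 to 19.5), 6.07 (2.60 to 14.2) and 3.00 (1.28 to 7.01) times the covered share. The intervals of ATF3 A and ATF3 B overlapped, and the values of ATF3 B and ATF3 C rest on 5 regions each. For Pol II the ratio to the covered share was 1.61, 1.04 and 1.02 with no limit and 21.1, 3.15 and 3.73 with limits of 1 kb for ATF3 and 10 kb for Pol II. For H3K27me3 it was 1.53, 1.26 and 1.06 with no limit. With the narrower limits it was 2.48, 0.668 and 0.659, where the values of ATF3 B and ATF3 C rest on 1 and 2 regions and lie below 1. ATF3 A was the highest of the 3 libraries for H4ac and for Pol II in all 11 settings that kept them apart.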

How the data were processed

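The data were ChIP-seq region lists, 1 per library, from 35 libraries. Each list gives positions and a score per region. The authors deposited the score without a header or a stated scale, and it served here only to rank regions within a list. Positions are on mm9, per the submitters' processing notes; the sources used here do not name the aligner, the region caller or a threshold. Target, time and replicate letter came from the labels.

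Regions up to 10 kb (ATF3, p50, p65, H4ac) or 100 kb (Pol II, H3K27me3) were kept and overlapping regions of a list joined. A set holds the regions made by joining the lists of a target at 240 min that every one of those lists touched by at least 1 bp. Coordinates are 1-based. Background points every 1 kb ran from the first to the last listed position of each chromosome. Shares have Wilson 95% intervals; means were compared with an exact two-sided permutation test over libraries. The overlap functions were tested on simulated data. Alternatives were the width limits, the overlap rule, the score, either list instead of both, each library left out and a block by replicate letter. Regions were named by score: the 3 best of each ATF3 list, of those in all 3 lists by mean rank relative to list length, and of 4 chromatin states of ATF3 A. The members, lists and limits were chosen with earlier results of these data known. The planned gene lists, start sites, cell type markers and sequence search need an mm9 genome or annotation and were not run. Python 3.11.15, numpy 2.4.6, scipy 1.17.1 and matplotlib 3.10.9 were used.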

Additional observations from a re-analysis of the deposited data

Results flagged for a closer look

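Among the 4 p50 libraries of 60 min, set beside ATF3 above, p50 D stood apart from the others. Its share touching the H4ac set was 18.8% beside 34.3 to 36.8%, and its share touching the Pol II set was 11.4% beside 22.3 to 24.0%. Its gap to the next library was large for the range of the group by Dixon's criterion, which chance meets in about 1 in 20 groups. p50 D had the shortest list, with 324 regions beside 1118 to 1378; the part of list length in its low shares was not tested.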

How the results depend on the processing

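Of 85 alternatives for the shares of single ATF3 libraries, 32 fell outside the counting interval of the share reported. The SD of the mean H4ac share exceeds the mean, so a move of that mean within the spread between libraries says nothing about its stability. With no width limit the mean ATF3 share was 44.7% for H4ac, 41.5% for Pol II and 35.1% for H3K27me3. With narrower limits it was 0.971%, 2.67% and 0.265%. The count of 13 became 66 with no width limit, 4 with at least 50% of the region covered, 6 by midpoints, 3 in the better-scored 50%, 5 at equal list length and 37 with every listed region counted. Leaving out each ATF3 library gave means of 4.92 to 21.4% for H4ac, 4.16 to 11.4% for Pol II and 3.35 to 3.53% for H3K27me3. All 36 alternatives of the difference from p50 were negative, with exact permutation p from 0.0571 to 0.667. Leaving out each ATF3 or p50 library gave −26.6 to −10.1 points for H4ac, −15.9 to −8.67 for Pol II and −2.85 to −2.35 for H3K27me3. With the replicate block by letter the difference was −19.9 for H4ac (exact sign-flip permutation p = 0.500), −14.0 for Pol II (p = 0.250) and −2.41 for H3K27me3 (p = 0.250, the smallest possible); the mean shares against the list of the same letter were 23.6% for H4ac and 10.8% for Pol II. Same-letter ATF3 and p50 libraries did not deviate together (correlations −0.0113, −0.0202 and −0.00650 over 8275 merged regions). The lists of these factors shared few regions, so the correlations cannot show whether a letter marks a shared culture or animal. The ratios of midpoint shares to covered length under other width limits were added after seeing the data. Other distances to gene start sites were not run, as no mm9 annotation was used. Depth is unknown, so no list can be read as complete. Each H3K27me3 condition and p65 without LPS had a single library and thus no replicate.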
